A study of Prunus avium with 6 samples.

Results

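A gene for a WRKY40 transcription factor and a gene for allene oxide synthase of sweet cherry (Prunus avium) were followed over leaves and fruits of the cultivars ‘Bing’, ‘Lapins’ and ‘Rainier’. They are 2 of the 43673 predicted genes. The first is Pav_sc0000890.1_g500.1.mk, described as probable WRKY transcription factor 40 isoform X1 and called WRKY40 here. The second is Pav_sc0000890.1_g1300.1.mk, described as a chloroplastic allene oxide synthase and called AOS here. Both were picked by name from the described genes, with their unique reads in the cultivar pairs already in view, so their differences between cultivars are given as a description. Where a ratio is said to pass the criteria of the study, this sorts it by those criteria and is no independent test. The question asked of them was whether they follow each other over cultivar and tissue.

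Total RNA of ripe fruits, harvested at commercial maturity, and of leaves was sequenced by 454 FLX pyrosequencing in the 2012 season, with 1 library for each cultivar and tissue. The sites in Chile were Quillota for ‘Bing’, Los Andes for ‘Lapins’ and San Francisco de Mostazal for ‘Rainier’, so cultivar and site cannot be told apart. No treatment was applied, and neither the labels nor the paper's methods say how many trees went into a library. A cultivar pair within a tissue therefore sets a single library against another and has no replicate check, whereas fruit and leaf each have 3 libraries, 1 per cultivar.

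WRKY factors are plant DNA-binding proteins that recognise W-box elements in promoters. In Arabidopsis, WRKY40 is induced rapidly by pathogens, wounding and abscisic acid and acts largely as a repressor together with its close relatives. Allene oxide synthase is a plastid cytochrome P450 that turns a fatty acid hydroperoxide into an unstable allene oxide, the first step committed to jasmonate synthesis. Jasmonate is a wound and defence hormone that also acts in growth and fertility. When it is perceived, JAZ repressors of the TIFY family are degraded and its target genes are released.

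Library sums ranged from 74371 to 116264 unique reads in fruit and from 70058 to 89009 unique reads in leaf, and non-specific matches made up 1.49% to 2.28% of a library's total reads. At this depth 3 reads, which a count of 0 still allows, correspond to 0.258 to 0.428 reads per 10000. The tissue labels were checked, with values in the order ‘Bing’, ‘Lapins’ and ‘Rainier’ as throughout, by 2 described leaf markers: a chlorophyll a-b binding protein had 0, 0 and 1 reads in the fruits, against 57, 48 and 55 in leaf, and a chloroplastic geranylgeranyl diphosphate gene had 5, 3 and 1 reads in fruit, against 35, 39 and 50 in leaf. Both genes of interest lay well above the floor of 3 reads in every library. WRKY40 had 141 unique reads over the 6 libraries, rank 549 among the 16519 genes with a read, and AOS had 116, rank 753. Neither gene had a non-specific match in any library.

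WRKY40 had 10, 16 and 24 unique reads in the fruits, against 57, 10 and 24 unique reads in their leaves. Per 10000 unique reads of the library, this was 0.860 in ‘Bing’ fruit (exact Clopper-Pearson 95% interval 0.412 to 1.58), 2.15 in ‘Lapins’ fruit (1.23 to 3.49) and 2.86 in ‘Rainier’ fruit (1.83 to 4.25). In leaf it was 6.40 in ‘Bing’ (4.85 to 8.30), 1.43 in ‘Lapins’ (0.684 to 2.62) and 3.42 in ‘Rainier’ (2.19 to 5.09). ‘Bing’ thus held both the lowest fruit value and the highest leaf value, and the fruit and leaf ranges overlapped through ‘Lapins’ leaf and ‘Rainier’ fruit. All intervals on reads cover counting error only.

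AOS had 17, 21 and 8 unique reads in the fruits, against 38, 11 and 21 unique reads in their leaves. Per 10000 unique reads, fruit held 1.46 in ‘Bing’ (0.852 to 2.34), 2.82 in ‘Lapins’ (1.75 to 4.32) and 0.953 in ‘Rainier’ (0.411 to 1.88). Leaf held 4.27 in ‘Bing’ (3.02 to 5.86), 1.57 in ‘Lapins’ (0.784 to 2.81) and 2.99 in ‘Rainier’ (1.85 to 4.57). ‘Bing’ leaf was again the highest library, while the lowest was ‘Rainier’ fruit, the library that was highest among the fruits for WRKY40. Fruit and leaf ranges overlapped here too, since ‘Lapins’ leaf lay between the fruit values.

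**Figure D1:**
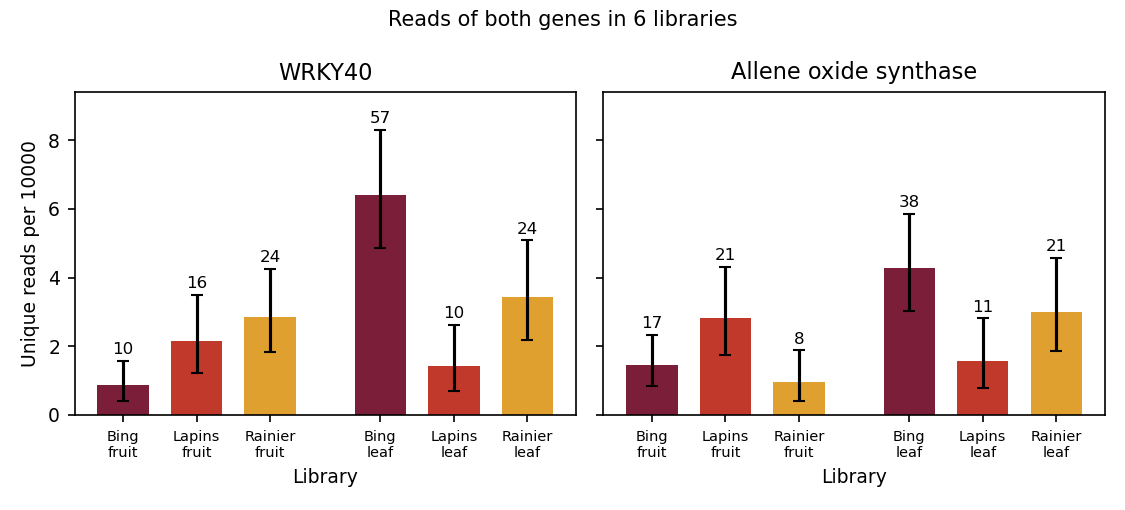
Unique reads per 10000 of WRKY40 (left) and AOS (right), on a linear axis from 0, in fruit and leaf of the 3 cultivars; bars are single libraries, whiskers are exact 95% intervals and the number above each bar is its count of unique reads. ‘Bing’ leaf is the highest bar of both genes, at 6.40 for WRKY40 and 4.27 for AOS, whereas ‘Rainier’ fruit is high for WRKY40 (2.86) and low for AOS (0.953).

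Within leaf, both genes had the same order of cultivars, ‘Bing’ above ‘Rainier’ above ‘Lapins’. For WRKY40 the intervals of the ratios of all 3 leaf pairs left out 1, so that neighbours in its leaf order differed by more than counting error. For AOS only the ends of the order, ‘Bing’ and ‘Lapins’, had a ratio whose interval left out 1. Within fruit the orders differed: ‘Rainier’, ‘Lapins’, ‘Bing’ for WRKY40 and ‘Lapins’, ‘Bing’, ‘Rainier’ for AOS. In fruit of ‘Rainier’ and ‘Lapins’, the upper neighbours for WRKY40, the interval of the ratio held 1, and so it did for both pairs of neighbours in AOS.

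The cultivar pairs were sorted by the criteria of the study: a p of 0.05 or less when the proportions of reads are compared, a 2-fold or larger ratio in either direction, and a minimum of 10 reads. The paper does not say whether 1 or both libraries must reach this minimum, and 1 was taken as enough here. With this reading more genes passed in each pair than the paper reports for it, so its counts were not reproduced. Fewer genes passed where both libraries had to reach the minimum. The p covers counting error alone. In ‘Bing’ against ‘Lapins’ leaf, 23.4% of the genes with enough reads passed them, and both members were among these. WRKY40 was 4.49 times as high in ‘Bing’ leaf as in ‘Lapins’ leaf (95% interval of the ratio 2.27 to 9.85), and AOS 2.72 times (1.36 to 5.90). This was the only one of the 6 cultivar pairs in which both passed, and both were higher in ‘Bing’. In ‘Bing’ against ‘Rainier’ leaf, where 23.4% of genes passed, the ratio was 1.87 for WRKY40 (1.14 to 3.16) and 1.43 for AOS (0.816 to 2.56), under the ratio of 2 in each. In ‘Lapins’ against ‘Rainier’ leaf, where 21.1% passed, the ratio was 0.417 for WRKY40 (0.178 to 0.906), which passed, and 0.525 for AOS (0.228 to 1.14), which did not. Both ratios thus pointed the same way in each of the leaf pairs, which restates the shared leaf order. How many other genes had this order was not counted.

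In fruit the members went the same way in the first pair and parted in both pairs with ‘Rainier’. In ‘Bing’ against ‘Lapins’ fruit, where 35.6% of genes passed the criteria, the ratio was 0.400 for WRKY40 (0.162 to 0.937), which passed, and 0.518 for AOS (0.256 to 1.03), which did not. In ‘Bing’ against ‘Rainier’ fruit, where 33% passed, the ratio was 0.301 for WRKY40 (0.128 to 0.653), which passed, against 1.53 for AOS (0.628 to 4.11), whose interval held 1. In ‘Lapins’ against ‘Rainier’ fruit, where 15.9% passed, the ratio was 0.753 for WRKY40 (0.374 to 1.48) and 2.96 for AOS (1.26 to 7.74), and here only AOS passed. With its 8 reads in ‘Rainier’ fruit, AOS would not pass if 10 reads were required in both libraries. In these last 2 pairs, both against ‘Rainier’ fruit, the ratios of the members lay on opposite sides of 1. WRKY40 passed in 4 of the 6 pairs and AOS in 2, and the pairs of a tissue share libraries.

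**Figure D2:**
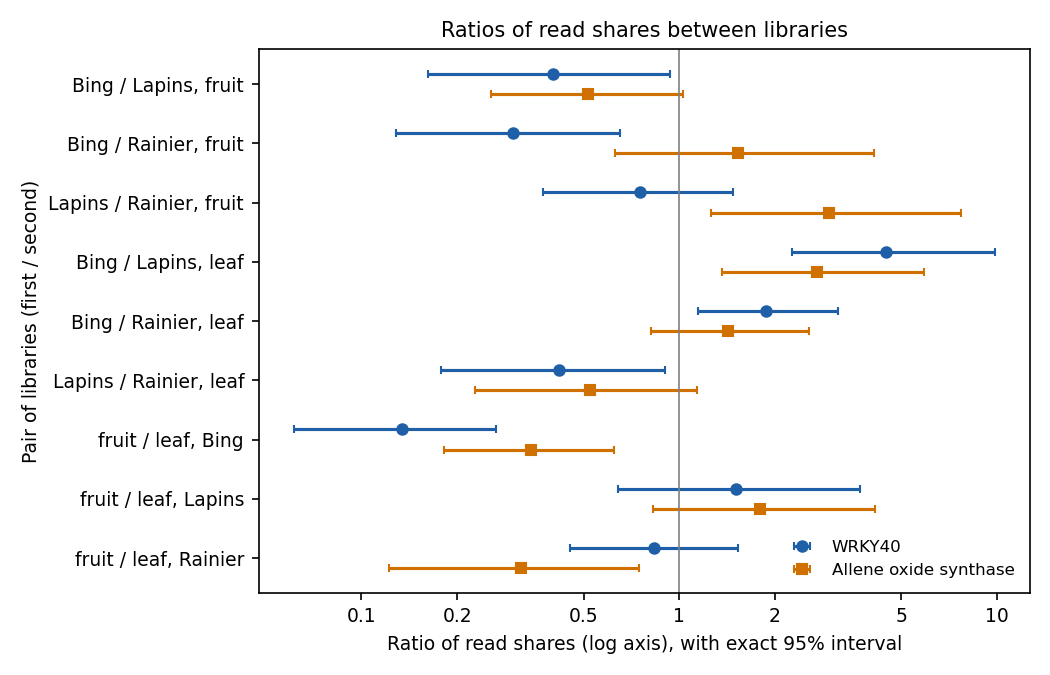
Ratios of read shares of WRKY40 (circles) and AOS (squares) on a log axis, for the 6 cultivar pairs within a tissue and for fruit over leaf within each cultivar, with exact 95% intervals; the vertical line marks a ratio of 1. Both genes lie on the same side of 1 in the leaf pairs, and on opposite sides in ‘Bing’ and ‘Lapins’ fruit against ‘Rainier’ fruit (0.301 and 0.753 for WRKY40, 1.53 and 2.96 for AOS).

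Within ‘Bing’, fruit was below leaf by more than counting error for both members. WRKY40 in ‘Bing’ fruit was 0.134 times its level in ‘Bing’ leaf (95% interval 0.0612 to 0.265), and AOS 0.342 times (0.181 to 0.622). In ‘Lapins’ the ratio of fruit to leaf was 1.51 for WRKY40 (0.643 to 3.71) and 1.80 for AOS (0.829 to 4.13), with intervals that held 1. In ‘Rainier’ the ratio was 0.836 for WRKY40 (0.455 to 1.54) and 0.319 for AOS (0.122 to 0.749), so that the interval left out 1 for AOS alone. Each of these ratios rests on 1 library per tissue.

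Over the 3 cultivars, neither gene passed the test of fruit against leaf. WRKY40 averaged 1.96 ± 1.01 reads per 10000 in fruit and 3.75 ± 2.505 in leaf (SD, n = 3 each), and AOS 1.75 ± 0.967 in fruit and 2.94 ± 1.35 in leaf. In edgeR's quasi-likelihood test with Benjamini-Hochberg adjustment over 1864 genes, the log2 fold change was -1.10 for WRKY40 (SE 0.56, adjusted p = 0.125) and -0.91 for AOS (SE 0.51, adjusted p = 0.158). Of the genes tested, 45.7% passed, 362 higher and 490 lower in fruit, and the members were not among them. Without the ‘Lapins’ leaf library WRKY40 passed, at a log2 fold change of -1.59 (adjusted p = 0.0493). Without the ‘Bing’ leaf library its log2 fold change was -0.60, and 5 of the 6 fits that each left out a library did not reach the threshold. For AOS none of these 6 fits did, with log2 fold changes between -1.33 and -0.56. These p-values measure the spread between the libraries, and in RNA of whole tissue fewer cells that carry a transcript and less of it per cell cannot be told apart.

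Levels also spread over the cultivars within a tissue. The highest cultivar held 3.32 times the lowest for WRKY40 in fruit and 4.49 times in leaf. For AOS it held 2.96 times in fruit and 2.72 times in leaf.

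Levels of different genes are compared here per length of coding sequence, which is 984 bases for WRKY40 and 1569 bases for AOS. In RPKM, the deposited reads per kilobase scaled to the total reads of the library, WRKY40 stood at 86.1, 214 and 285 in fruit, against 638, 142 and 340 in leaf. AOS stood at 91.8, 176 and 59.7 in fruit, against 267, 97.8 and 187 in leaf. The level of WRKY40 per length was 4.78 times that of AOS in ‘Rainier’ fruit (95% interval 2.08 to 12.3) and 2.39 times in ‘Bing’ leaf (1.56 to 3.71). In the other 4 libraries the interval of this ratio held 1, with ratios of 0.938 in ‘Bing’ fruit, 1.21 in ‘Lapins’ fruit, 1.45 in ‘Lapins’ leaf and 1.82 in ‘Rainier’ leaf.

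Genes that follow each other keep a constant share of their joint reads. WRKY40 made up 54.9% of the 257 reads of both genes over all libraries. In fruit its share was 37.0% in ‘Bing’ (exact 95% interval 19.4 to 57.6), 43.2% in ‘Lapins’ (27.1 to 60.5) and 75.0% in ‘Rainier’ (56.6 to 88.5). In leaf it was 57 of 95 reads in ‘Bing’ (49.4% to 69.9%), 47.6% in ‘Lapins’ (25.7 to 70.2) and 53.3% in ‘Rainier’ (37.9 to 68.3). The intervals overlapped among the leaves and among the fruits. The share in ‘Rainier’ fruit lay above the intervals of both other fruits. That in ‘Lapins’ leaf lay below the interval of ‘Bing’ leaf, but its own wider interval held the ‘Bing’ leaf share.

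The mean share was 51.8% ± 20.4 in fruit and 53.7% ± 6.20 in leaf (SD, n = 3 each), a difference of -1.89 percentage points. A two-sided exact permutation test gave p = 0.90, where the smallest p that 3 against 3 libraries allow is 0.10. It compares only the mean shares of the tissues, so it cannot show whether the share was constant over the libraries. The sign of the difference between these means turned without ‘Bing’ fruit (5.47), ‘Lapins’ fruit (2.37) or ‘Bing’ leaf (1.28). Without ‘Rainier’ fruit the difference was -13.5. Among the 15 pairs of libraries, the ratio of WRKY40 to AOS reads had an exact conditional 95% interval without 1 in 2 pairs, ‘Bing’ over ‘Rainier’ fruit (0.196, 0.0549 to 0.681) and ‘Lapins’ over ‘Rainier’ fruit (0.254, 0.0784 to 0.791). At a level adjusted over the 15 pairs no interval left out 1. These reads thus put ‘Rainier’ fruit apart from the other fruits by more than counting error in single pairs, and not after the adjustment.

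**Figure D3:**
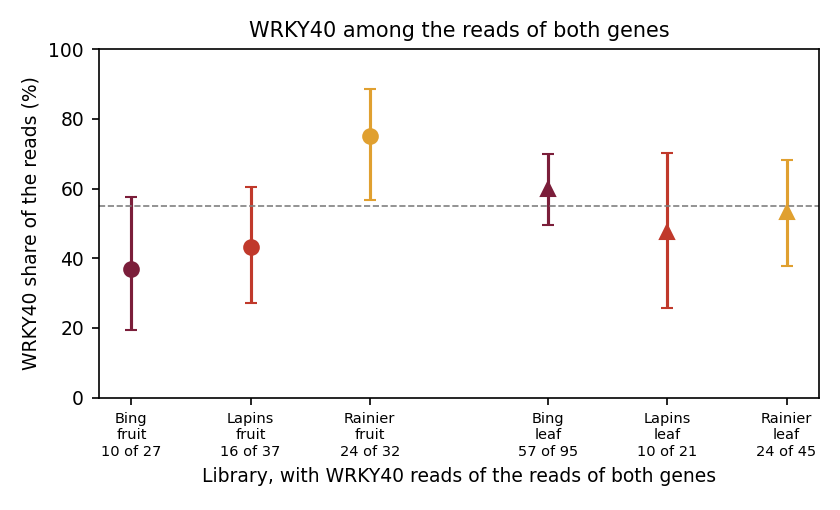
Share of WRKY40 among the reads of both genes, in percent, in each fruit (circles) and leaf (triangles) library, with exact 95% intervals; the dashed line is the share over all libraries, 54.9%. ‘Rainier’ fruit, at 75.0%, is the library whose interval lies above the line.

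The same can be seen with the levels of both genes set against each other. ‘Bing’ fruit and ‘Lapins’ leaf were low in both genes, ‘Lapins’ fruit and ‘Rainier’ leaf were intermediate in both, and ‘Bing’ leaf was highest in both. ‘Rainier’ fruit held the third highest value of WRKY40 and the lowest of AOS.

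**Figure D4:**
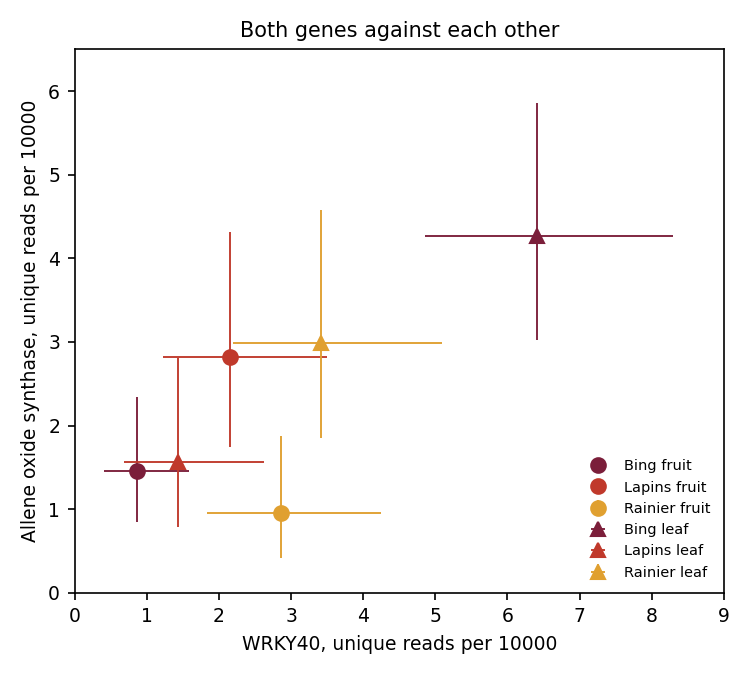
Unique reads per 10000 of AOS (vertical axis) against WRKY40 (horizontal axis) in fruit (circles) and leaf (triangles) of the 3 cultivars, with exact 95% intervals of both. ‘Rainier’ fruit (2.86 of WRKY40, 0.953 of AOS) lies below the libraries with a similar level of WRKY40, and ‘Bing’ leaf (6.40 and 4.27) is highest on both axes.

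To place this among the other genes, each gene's log2(reads per 10000 + 0.5) was centred on its mean over the 6 libraries, and the mean absolute difference between 2 genes was taken as their distance. The genes compared were the 3841 others with at least 30 reads. The distance between WRKY40 and AOS was 0.48, against a median of 0.81 from WRKY40 and of 0.72 from AOS to all these genes. From WRKY40, AOS was the gene of rank 170, so that 4.40% of genes lay nearer, and it was the second nearest of the 74 described ones. From AOS, WRKY40 had rank 481, with 12.5% of genes nearer, and it was number 12 of the 74 described ones. These ranks depended on single libraries. The rank of AOS from WRKY40 was 37 without ‘Rainier’ fruit and 440 without ‘Bing’ fruit, and it was 582 without ‘Bing’ leaf, 490 without ‘Lapins’ leaf and 370 without ‘Rainier’ leaf. The rank of WRKY40 from AOS was 185 without ‘Rainier’ fruit, and 816, 859 and 940 without the leaf library of ‘Bing’, ‘Lapins’ and ‘Rainier’. The distance came mostly from fruit, where WRKY40 minus AOS on the centred scale was -0.69 in ‘Bing’, -0.48 in ‘Lapins’ and 1.05 in ‘Rainier’, against 0.38, -0.26 and 0.01 in leaf.

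Split by tissue, a step added after these values were seen, the distance was 0.73 in fruit, against 0.22 in leaf. In fruit 70.0% of genes lay nearer to WRKY40 than AOS did, and in leaf 1.82%. From AOS, 80.8% of genes lay nearer than WRKY40 in fruit, and 8.62% in leaf. In fruit the distance was above the medians over genes, 0.58 from WRKY40 and 0.52 from AOS, and in leaf it was below them, 0.69 and 0.49. Each of these values rests on 3 libraries and carries no test, and the difference between the tissues was not tested.

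The gene nearest to WRKY40 was Pav_sc0002233.1_g180.1.mk, without a description here, at a distance of 0.13. It had 14, 14 and 29 reads in the fruits, against 65, 11 and 31 in leaf. Pav_sc0000506.1_g170.1.mk followed at 0.22, with 5, 6 and 11 reads in fruit, against 20, 3 and 7 in leaf. Both had their lowest fruit level in ‘Bing’ and their highest leaf level in ‘Bing’, as WRKY40 did. They were chosen for their small distance to WRKY40, so this likeness is no separate result. The nearest described genes were a DUF868 domain gene of the same scaffold (0.38), AOS (0.48), an alpha-ketoglutarate-dependent dioxygenase-like gene (0.53), PLANT CADMIUM RESISTANCE 2-like (0.53) and CHROMATIN REMODELING 19 (0.54).

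The gene nearest to AOS was Pav_sc0000103.1_g1130.1.mk, also without a description here, at a distance of 0.13. It had 28, 40 and 22 reads in the fruits, against 72, 26 and 41 in leaf. Pav_sc0000597.1_g490.1.mk followed at 0.15, with 9, 12 and 5 reads in fruit, against 16, 7 and 12 in leaf. Both had their highest fruit level in ‘Lapins’, where AOS had its own, again a likeness by which they were chosen. The nearest described genes were a VAC14 homolog (0.29), a transmembrane 9 superfamily member 3 (0.35), OBERON 3 (0.38), the TIFY 6B-like gene described next (0.40) and a CCR4-associated factor 1 homolog 7 (0.42).

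**Figure D5:**
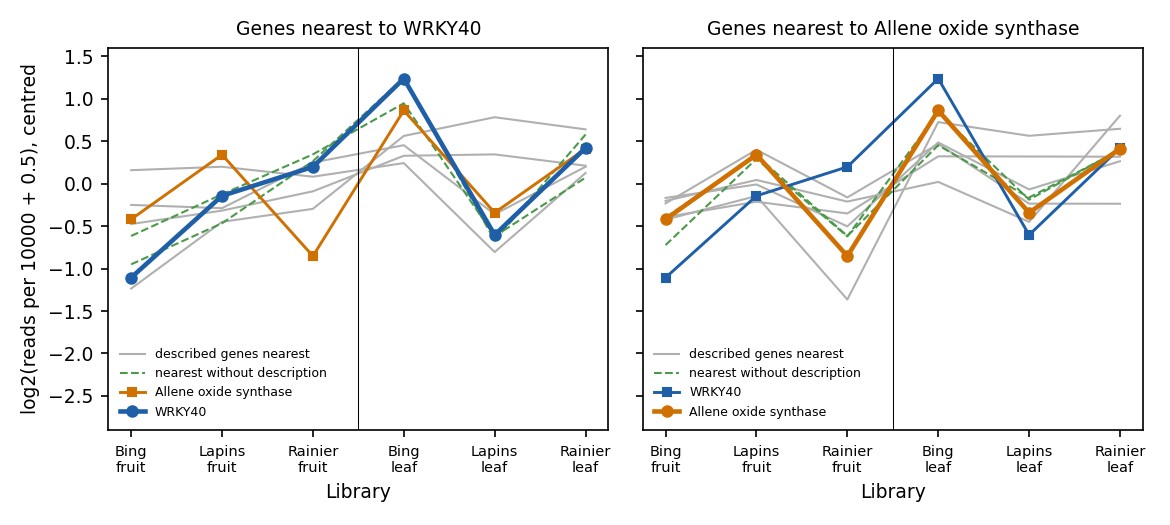
Centred log2(reads per 10000 + 0.5) over the fruit and leaf libraries for WRKY40 and AOS (thick or marked lines), with the genes nearest to WRKY40 (left) and to AOS (right); grey lines are described genes and dashed green lines genes without a description. WRKY40 and AOS run close together in leaf and part in fruit, most in ‘Rainier’, where WRKY40 minus AOS is 1.05.

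Only 428 of the predicted genes had an informative description here. All genes in the lists below lie on scaffolds from Pav_sc0000877.1 to Pav_sc0000898.1, so no list can be taken for a whole gene family. The described part of the jasmonate pathway held 2 genes. These were AOS and a TIFY 6B-like gene (Pav_sc0000893.1_g130.1.mk), of the same family as the JAZ repressors. TIFY 6B-like had 20, 15 and 15 reads in the fruits, against 28, 22 and 22 in leaf. Its level was 1.84 ± 0.156 reads per 10000 in fruit and 3.14 ± 0.00584 in leaf (SD, n = 3 each), and its fruit and leaf values did not overlap. At 15 to 28 reads per library, counting error is wider than these SDs, so they do not show a steady level over cultivars. In the edgeR test its log2 fold change of fruit over leaf was -0.89 (SE 0.42, Benjamini-Hochberg adjusted p = 0.0953), so that 0 of these 2 jasmonate genes passed, too few genes to set against the 45.7% of all genes tested. It passed the criteria in none of the 6 cultivar pairs, against 2 for AOS.

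WRKY40 was the only one of the 4 described WRKY and VQ motif genes with enough reads to test; VQ motif proteins are partners of WRKY factors. A second gene described as probable WRKY transcription factor 40 (Pav_sc0000890.1_g480.1.mk) had 0 reads in the 3 fruit libraries and 2, 1 and 0 in leaf of ‘Bing’, ‘Lapins’ and ‘Rainier’. WRKY40 had no non-specific match, so none of its reads was recorded as also matching this copy. WRKY29, a factor of immune signalling in Arabidopsis, had 0, 1 and 1 reads in fruit and 1, 0 and 4 in leaf. VQ motif-containing 31-like had no read, which allows up to 0.258 to 0.428 reads per 10000 in a library.

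Of 13 described cytochrome P450 genes, the family of AOS, 9 had reads and 2 could be tested. Of these, 1 rose in fruit and AOS did not pass, too few genes to set against the 45.7% over all genes tested. The gene that rose was a CYP82D47-like gene (Pav_sc0000890.1_g1250.1.mk), with 128, 52 and 44 reads in the fruits, against 2, 10 and 2 in leaf, and a log2 fold change of 3.49 (SE 0.63, edgeR adjusted p = 0.000239). It has close copies on the scaffold and 16 non-specific reads, so its count is less certain. The gene for flavonoid 3′-monooxygenase, which acts in anthocyanin synthesis, had 32, 37 and 4 reads in fruit, against 6, 5 and 4 in leaf, and a second CYP82D47-like gene had 8, 15 and 9 reads in fruit, against 0, 14 and 3 in leaf. As for AOS, the flavonoid gene had its highest fruit count in ‘Lapins’ and its lowest in ‘Rainier’.

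Of 30 described genes listed for immune and wound responses, 20 had reads and 2 could be tested. Of these, 1 fell and 1 did not pass, again too few genes to set against the 45.7% over all genes tested. SNAP33-like, a membrane fusion protein of pathogen responses in Arabidopsis, fell in fruit, with 6, 12 and 6 reads in the fruits, against 26, 26 and 22 in leaf (log2 fold change -1.95, SE 0.49, edgeR adjusted p = 0.00408). Chorismate mutase 2, an enzyme of aromatic amino acid synthesis, had 29, 59 and 75 reads in fruit, against 28, 9 and 36 in leaf (log2 fold change 0.86, SE 0.55, edgeR adjusted p = 0.218), and it passed without the ‘Bing’ fruit library (log2 fold change 1.29, adjusted p = 0.0228). It passed the criteria in the same 4 cultivar pairs as WRKY40, and in fruit both had the order ‘Rainier’, ‘Lapins’, ‘Bing’. These pairs share libraries, and 35.6%, 33%, 23.4% and 21.1% of genes passed in them. How many genes passed in all of them, or had this fruit order, was not counted. With its 9 reads in ‘Lapins’ leaf, chorismate mutase 2 would pass in neither leaf pair if both libraries had to reach 10 reads. In leaf the orders differed, with ‘Rainier’ highest for chorismate mutase 2 and ‘Bing’ highest for WRKY40. A G-type lectin receptor-like kinase had 13, 6 and 1 reads in fruit, against 11, 5 and 3 in leaf, and a disease resistance gene similar to At4g33300 had 3, 6 and 2 reads in fruit, against 10, 5 and 0 in leaf.

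Of 13 described genes listed for other hormones, 7 had reads and 1 could be tested. This was a TMK1-like receptor kinase, a relative of kinases that act in auxin responses of Arabidopsis, which rose in fruit with 25, 14 and 19 reads in ‘Bing’, ‘Lapins’ and ‘Rainier’, against 4, 1 and 1 in leaf (log2 fold change 2.84, SE 0.57, edgeR adjusted p = 0.000611). An ORR21 response regulator of cytokinin signalling had 6, 2 and 3 reads in fruit, against 10, 4 and 4 in leaf. The gene for IAA-alanine resistance 1, named for auxin conjugates, had 5, 5 and 2 reads in fruit, against 4, 3 and 3 in leaf. A response regulator-like APRR1 gene, whose description names no hormone, had 2, 3 and 4 reads in fruit, against 3, 7 and 1 in leaf.

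Both members lie on the scaffold Pav_sc0000890.1, with 68 numbered genes between them among 141 on the scaffold. The numbered neighbours other than a CBL-interacting kinase gene had at most 6 reads over the libraries. Next to WRKY40, this gene, CBL-interacting kinase 5-like, had 16, 18 and 9 reads in the fruits, against 7, 5 and 5 in leaf, so that each fruit count was above each leaf count. Its other neighbours were the WRKY40 copy named above, a gene without a description and without reads, and TFIID subunit 5, with 4, 1 and 0 reads in fruit and 0, 0 and 1 in leaf. Next to AOS, a hypothetical protein and wall-associated receptor kinase-like 14 had no read in any library, a cytochrome c oxidase assembly factor had 1, 2 and 1 reads in fruit and none in leaf, and the ubiquitin ligase ARI8 had 2, 0 and 0 reads in fruit and 0, 0 and 1 in leaf.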

How the data were processed

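The authors trimmed the reads and used version 11.0.1 of CLC Genome Workbench to map them to 43673 predicted coding sequences (similarity 0.9, length fraction 0.6, costs 3, unspecific match limit 10), and deposited counts of unique and total reads per gene. Unique reads were used, as in the study, with total reads as an alternative. Of the other deposited columns, RPKM, stored with decimal commas, gave coding lengths and levels per length, and TPM was not used. Names came from 581 annotated genes, of which 428 had an informative description. Of the gene identifiers, 0 matched the reference gene table, and sequences were not used here.

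Cultivar pairs were sorted by the study's criteria, with p from the Z-test of Kal, which covers counting error alone. The study's minimum of 10 reads was taken as met when 1 of the libraries reached it, with 10 reads in both as an alternative, since the paper does not say which was meant. Shares of reads and their ratios carry exact 95% intervals (scipy 1.17.1, Python 3.11.15, with numpy 2.4.6, pandas 2.3.3 and matplotlib 3.10.9). The comparison of fruit and leaf took the cultivars as replicates and used R 4.3.3 with edgeR 4.0.16: filterByExpr, TMM, the quasi-likelihood test and a threshold of 0.05 on the p adjusted by Benjamini-Hochberg. DESeq2 1.42.0, other scalings, no filter on low counts, other minimum reads and pseudocounts, a block for cultivar and leaving out each library were alternatives.

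Leaf and fruit of a cultivar share cultivar and site, which pairs them. The correlation of their deviations was 0.136 for ‘Bing’, -0.0451 for ‘Lapins’ and 0.0833 for ‘Rainier’, against -0.237 to 0.222 for leaf and fruit of different cultivars.

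The members and the gene lists were chosen with earlier results of these data known. Named were both members and, for each, the 5 described and 2 undescribed genes at the smallest distance. All described WRKY, VQ and jasmonate genes and 2 numbered neighbours on each side were also named. Of each other list, up to 4 genes with most reads were named, plus any that passed the test.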

Additional observations from a re-analysis of the deposited data

Results flagged for a closer look

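The ratio of ‘Bing’ to ‘Lapins’ for WRKY40 was 0.400 in fruit, against 4.49 in leaf, on opposite sides of 1, so that the fruit ratio divided by the leaf ratio was 0.0891. The ratio of ‘Bing’ to ‘Rainier’ was 0.301 in fruit, against 1.87 in leaf, and the fruit ratio divided by the leaf ratio was 0.161. Both rest on the same ‘Bing’ libraries, with 10 reads in fruit and 57 in leaf. With 1 library per cultivar and tissue, neither difference was tested.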

How the results depend on the processing

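The direction of fruit against leaf was the same for both members in all 24 alternative fits, and 1 of these passed the threshold. These fits reuse the same libraries. Within ‘Lapins’ the direction was opposite, with a ratio of fruit to leaf of 1.51 for WRKY40 and 1.80 for AOS, though both intervals held 1. Leaving out a library gave log2 fold changes of -1.59 (without ‘Lapins’ leaf, adjusted p = 0.0493) to -0.60 for WRKY40. The replicate block gave -0.999 for WRKY40 (edgeR adjusted p = 0.136) and -0.92 for AOS (adjusted p = 0.145), and changed no call of a member. Library sums alone moved the median log2 fold change of all genes to 0.12, where WRKY40 was at -1.02 and AOS at -0.79. Genes called numbered 852 of 1864 tested, against 1957 of 16519 tested with no filter on low counts, which is a smaller share.

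Of 48 alternative readings of the pair ratios, 43 kept their side of the criteria. Adjusted p and 10 reads in both libraries can only take calls away, so a ratio that had not passed could not change side there. The count of 43 is therefore no measure of how steady the calls were. AOS passed in no pair with adjusted p, so no pair then had both genes passing. With adjusted p, WRKY40 no longer passed at 0.400 (‘Bing’ over ‘Lapins’ fruit) and 0.417 (‘Lapins’ over ‘Rainier’ leaf), nor AOS at 2.72 (‘Bing’ over ‘Lapins’ leaf) and 2.96 (‘Lapins’ over ‘Rainier’ fruit). The last was also lost where 10 reads were required in both libraries. In the order ‘Bing’ over ‘Lapins’, ‘Bing’ over ‘Rainier’ and ‘Lapins’ over ‘Rainier’, genes called in fruit numbered 1145, 1075 and 340, against 321, 303 and 96 with 10 reads in both and 518, 439 and 44 with adjusted p. In leaf they numbered 579, 560 and 415, against 173, 171 and 120, and 152, 126 and 51. The causes were not tested.

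The difference in the WRKY40 share between fruit and leaf ranged over -13.5 to 5.47 percentage points when a library was left out, and was also reversed at 2.37 and 1.28. The distance between the members lay between 0.32 and 0.58 in the settings over 5 or 6 libraries. With a library left out, the rank of AOS from WRKY40 lay between 37 (without ‘Rainier’ fruit) and 582 (without ‘Bing’ leaf), and that of WRKY40 from AOS between 185 and 940. With 8 to 57 reads per gene and library, the interval left out 1 in 5 of 6 cultivar pairs for WRKY40 and in 2 of 6 for AOS. The share of such intervals over all genes was not counted, and the part of depth in this was not tested.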
